A study of Rattus norvegicus with 14 samples.

Results

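Ovariectomy (OVX) and orchidectomy (OOX) both remove the gonads, and this account concerns the genes of rat choroid plexus (CP) on which the 2 operations had effects of opposite sign. Of 15154 genes named on the array, 12557 are called measured genes here, because each array of some group, or of several, read them well above background. Among them 5898 (47.0%) had a fitted OVX effect and a fitted OOX effect of opposite sign, and these are the opposed genes. Effects of any size were taken, also those near 0, so this share is no count of genes that responded. Over all measured genes the 2 effects had a Pearson correlation of 0.07. The OVX effect was above 0 in 2223 of the opposed genes and below 0 in 3675, and 5458 of them were well above background on all 14 arrays while 440 passed through 1 to 3 groups only. In the former set the signal was higher after OVX and lower after OOX than in the sham group of the same sex, and in the latter it was lower after OVX and higher after OOX. The other 6659 measured genes had effects of the same sign. With arrays scaled to their 75th percentile the 2 directions were nearly even, at 3026 and 2958.

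The CP is a tissue of secretory epithelium, stroma and vessels that projects into the brain ventricles and produces cerebrospinal fluid. It was taken from the lateral ventricles of Wistar rats that were 2 months old at surgery and were killed 2 weeks later. The groups were sham-operated females (3 arrays), OVX females (3 arrays), sham-operated males (4 arrays) and OOX males (4 arrays), and each array held RNA pooled from 3 animals. The rats were kept under a cycle of light and dark, the gonadectomized rats were killed under ketamine and medetomidine, how sham rats were anesthetized is not given, and no hormone treatment is named. The time of day of tissue collection, the estrous stage of the sham females and whether pools shared animals are not given in the sources used here. Fewer animals per group are named there than separate pools would need, so some pools may share animals, p-values measure the spread between pools, and they may be too small. The ovary is the main source of circulating estradiol and progesterone, and the testis of testosterone. These steroids act on cells through nuclear receptors that bind DNA. The molecular clock, to which several of the genes below belong, is a feedback loop present in most tissues, including the CP, in which transcriptional activators drive the genes of their own repressors, so that activators and repressors peak at different times of the day.

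A level below is the log2 signal of a gene minus the median of its array. A level of 0 is therefore that of the median probe, and a difference of 1 is a doubling. An effect is the mean level after OVX or OOX minus the mean of the sham group of the same sex, from limma over all 14 arrays, and the interaction is the OOX effect minus the OVX effect. Calls are at an adjusted p under 0.05, by the Benjamini-Hochberg method over all genes and unnamed probes. Between 79.7% and 87.2% of the spots of an array were well above background. All 22 epithelial genes on the array, such as transporters and secreted proteins of the CP, were measured, and 9 of them saturated the scanner on every array. The summed signal of these epithelial genes was 4615 to 5476 times the array median in sham females, 3458 to 5417 in OVX females, 4651 to 5357 in sham males and 3636 to 4754 in OOX males. The arrays lay on 5 slides, and sham females and OVX replicate 1 were scanned on a different day from all the others. A single slide held both female groups and a single slide held both male groups, so each effect is also given within that slide, as OVX replicate 1 minus sham female replicate 3 and as OOX replicate 4 minus the mean of sham male replicates 1 and 2.

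The interaction was called for 33 of 12557 measured genes (0.263%), and 29 of these were opposed. In 7 genes the signal was higher after OVX and lower after OOX (0.0557% of measured genes), namely Ciart, Per2, Tef, C5h1orf210, Cys1, Nr1d2 and Wee1. In 22 genes it was lower after OVX and higher after OOX (0.175%), with Sfrp2, Dbh, Kcnj14, Bmal1, Mme, Batf3, Gal and Npas2 as the 8 largest fitted interactions, that of Dbh being set partly against background. The remaining 4 called genes, Hoxa2, Meis1, Gfra1 and Plk5, had effects of the same sign. Effects of opposite sign add up in the interaction, so that a large interaction and opposite signs are not separate findings. At an unadjusted p under 0.05 (limma) the interaction passed in 1023 genes (8.15%). This count depended on the fit. It was 300 with slide as a block, which uses differences within slides alone, and 580 with scan day as a block. With arrays scaled to their 75th percentile it was 1475.

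The 2 arms of the opposition were not equally supported by the arrays. The OVX effect alone passed at an adjusted p under 0.05 (limma) in 28 of the 29 opposed genes called, all but Dapk1, against 186 of all measured genes (1.48%). The OOX effect alone passed in none of the measured genes by limma, and 1000 of them had an unadjusted p under 0.05. Of the 29, 22 had an OOX effect with an unadjusted p under 0.05, and 7 (Sfrp2, Dbh, Kcnj14, Mme, Hoxb4, Mmel1 and Wee1) did not. The median absolute effect over the 29 was 1.48 after OVX and 0.68 after OOX. In 18 of the 29 genes the arrays of the gonadectomized and the sham group did not overlap in either sex, which was so with opposite directions in 62 measured genes (0.494%). The 29 were chosen by a test on these same arrays, so low single-sex p-values and separate groups follow in part from the choice. In 26 of the 29 the gene was well above background on all 14 arrays, the exceptions being Sfrp2, Dbh and Hoxb4. Within the slides that held both groups of a sex, all 29 had effects of opposite sign. These slide effects use some of the arrays that gave the fitted signs, so this agreement is no separate support.

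Across the whole array, the balance of opposite and same signs depended on the threshold. Both effects were over 1.5-fold in 187 opposed genes and in 185 genes of the same sign. An unadjusted p under 0.05 in both sexes was reached with opposite signs by 89 genes (0.709%) and with the same sign by 196 genes (1.56%). By the thresholds of the study's methods, an unadjusted p under 0.05 and a change above 1.5-fold, here applied to the limma fit, 35 genes (0.279%) passed in both sexes with opposite signs, 10 of them higher after OVX, and 84 (0.669%) with the same sign. All 35 were opposed within slides, and 23 of them did not overlap in either sex. Both counts use arrays by which the 35 were chosen, so neither is separate support. Of the 29 genes called in the interaction, 17 were among them.

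**Figure D1:**
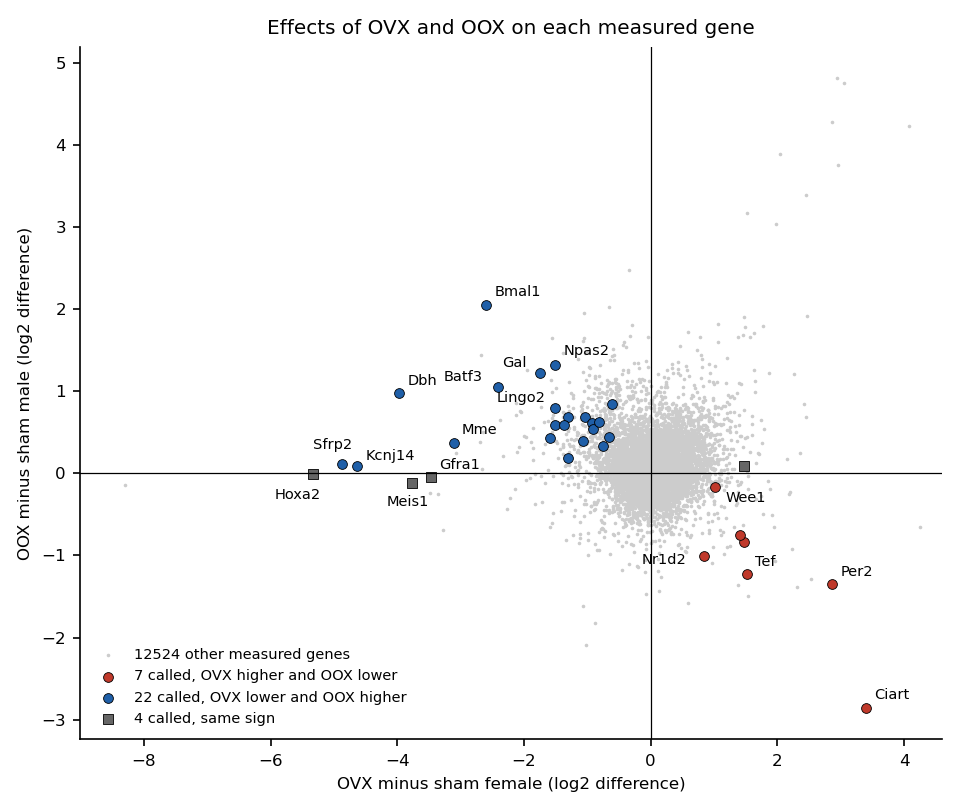
Each point is a measured gene, with the OVX effect (log2 difference from sham females) on the x axis and the OOX effect (log2 difference from sham males) on the y axis. The 7 red genes called in the interaction lie at the lower right, the 22 blue genes at the upper left, with Kcnj14 and Sfrp2 close to the line of no OOX effect, and the 4 grey squares are called genes of the same sign.

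Genes of the clock lists made up 8 of the 29 opposed genes called, Wee1 and Cys1 among them. Cys1 was listed with its own response on these arrays known. Of 25 measured clock genes 20 were opposed (80%, against 47.0% of all measured genes), 16 had an interaction with an unadjusted p under 0.05 (64%, against 8.15%) and 8 were called. The repressors Ciart, Per2 and Nr1d2 and the D-box activator Tef were higher after OVX and lower after OOX, and the activators Bmal1 and Npas2 were lower after OVX and higher after OOX. The clock lists were drawn up with earlier results of these arrays known, so that their counts are a description.

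Ciart encodes a repressor that binds the CLOCK and BMAL1 complex. Its level was -3.19, -2.08 and -0.77 in sham females and 1.60, 1.31 and 1.26 in OVX females. In sham males it was 0.00, 1.45, 1.33 and 1.22, and in OOX males it was -2.68, -1.62, -1.86 and -1.24. Every OVX array was thus above every sham female array and every OOX array below every sham male array, with sham male replicate 1 lower than the other sham males and the sham females far apart from each other. The OVX effect was 3.40 (SE 0.55) and the OOX effect -2.85 (SE 0.48), and the interaction of -6.26 (SE 0.73, limma adjusted p = 0.00263) was the largest among opposed genes called. Within slides the effects were 2.37 and -1.97.

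Per2, a period protein that represses the same activators, had levels of 0.25, -0.18 and 0.51 in sham females and of 3.03, 2.93 and 3.22 in OVX females. Its levels were 1.33, 2.17, 2.19 and 2.23 in sham males and 0.38, 0.59, 0.36 and 1.18 in OOX males. OVX females were highest, sham males next and above OOX males on every array, and OOX replicate 4 came closest to the lowest sham male, replicate 1. The interaction was -4.22 (SE 0.37, limma adjusted p = 0.00082), with an OVX effect of 2.87 (SE 0.28) and an OOX effect of -1.35 (SE 0.24).

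Nr1d2, or REV-ERB beta, is a nuclear receptor that represses Bmal1. Its levels were -0.34, -0.01 and 0.06 in sham females, 0.90, 0.80 and 0.54 in OVX females, 0.47, 1.08, 0.76 and 0.80 in sham males and -0.35, -0.32, -0.21 and -0.01 in OOX males. OVX females and sham males lay in the same range, as did sham females and OOX males. The effects of 0.85 (SE 0.18) and -1.002 (SE 0.15) were of similar size, with an interaction of -1.85 (SE 0.23, limma adjusted p = 0.00495).

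The other 6 measured repressors were not called. Bhlhe40 (0.56 after OVX and -0.57 after OOX) and Per3 (0.64 and -0.18) had an interaction with an unadjusted p of 0.000665 and 0.000246 in limma, and Cry2 (0.21 and -0.14) one of 0.0342. Per1, Cry1 and Nr1d1, the closest relative of Nr1d2, had effects of the same sign in both sexes and interactions between -0.27 and 0.06. Opposition was therefore found in 6 of 9 repressors, all higher after OVX.

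Among the activators, Bmal1 (also named Arntl), the partner of CLOCK and NPAS2, had levels of 3.72, 2.74 and 2.26 in sham females and of -0.03, 0.61 and 0.33 in OVX females. Levels were 1.41, 0.76, 0.31 and 0.53 in sham males and 3.47, 2.53, 2.90 and 2.31 in OOX males. Sham females and OOX males were thus high on every array, and OVX females and sham males low. The OVX effect was -2.60 (SE 0.40), the OOX effect 2.05 (SE 0.34) and the interaction 4.65 (SE 0.52, limma adjusted p = 0.00248). A second probe of Bmal1, not used for the call, gave -2.48 and 1.90.

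Npas2, which stands in for CLOCK as the partner of BMAL1, had levels from 3.35 to 4.12 in sham females, from 2.03 to 2.31 in OVX females, from 2.05 to 2.48 in sham males and from 3.21 to 3.95 in OOX males. No array of the high groups reached down to the low groups. The effects were -1.50 (SE 0.22) and 1.32 (SE 0.19) and the interaction 2.82 (SE 0.30, limma adjusted p = 0.00139). A dimmer second probe of Npas2 gave -0.06 and 0.31, so the 2 probes disagreed on the size of both effects and of the interaction (2.82 and 0.38). With the mean over both probes the interaction was 1.60 and still called by limma.

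Nfil3, which represses genes with a D-box, was placed with the activators because it peaks with them. Its levels were 1.68, 0.95 and -0.01 in sham females, -0.73, 0.44 and -0.51 in OVX females, -0.57, -0.97, -1.61 and -1.41 in sham males and 0.63, -0.13, 0.31 and 0.21 in OOX males. The male groups did not overlap and the female groups did. Its effects of -1.14 and 1.39 gave an interaction of 2.53 that was not called (limma adjusted p = 0.111), and that of Clock (-0.69 and 0.18) was not called either (adjusted p = 0.302).

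Of the 11 measured output genes 10 were opposed and 3 were called. Tef, an activator of D-box genes, had levels of 3.61, 4.04 and 4.46 in sham females, 5.58, 5.89 and 5.19 in OVX females, 5.04, 5.54, 5.57 and 5.23 in sham males and 3.62, 4.28, 4.23 and 4.33 in OOX males. OVX females and sham males were above the other groups on every array. Its effects were 1.52 (SE 0.26) and -1.23 (SE 0.23), with an interaction of -2.75 (SE 0.35, limma adjusted p = 0.00507). Dbp, its close relative, saturated the scanner on 2 arrays, where its level is a lower bound. Its effects as read were 1.53 (SE 0.45) and -1.50 (SE 0.39), with no overlap between groups in either sex, and its interaction of -3.03 was not called (limma adjusted p = 0.0752).

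Wee1, a kinase that holds cells before mitosis and whose gene is driven by the clock, was higher on all OVX arrays (4.04 to 4.19) than on sham female arrays (2.95 to 3.24). Its male groups overlapped, with levels of 3.17 to 3.44 in sham males and 2.92 to 3.28 in OOX males, and the OOX effect was -0.17 (95% confidence interval -0.42 to 0.08). The interaction of -1.19 (SE 0.18, limma adjusted p = 0.0183) thus came mainly from females. Cys1, a protein of the primary cilium, was put in the output list with its response on these arrays known, so its presence there is not independent. Its effects were 1.42 (SE 0.24) and -0.75 (SE 0.21), and a second probe, above background on 9 arrays, also gave a higher signal after OVX and a lower one after OOX. Leo1, a subunit of a transcription elongation complex, was opposed the other way (-0.77 and 0.34, unadjusted interaction p of 0.000825 in limma).

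The called clock genes were also set against the sham group of the other sex. Over the 8 genes the mean of OVX females differed from that of sham males by 0.03 to 1.17. Per2, Wee1 and Cys1 were higher in OVX females than in sham males on every array, by 1.08, 0.79 and 1.17 on average. The mean of OOX males differed from that of sham females by 0.06 to 0.51. These differences follow from the same 4 means as the effects and were not tested apart.

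**Figure D2:**
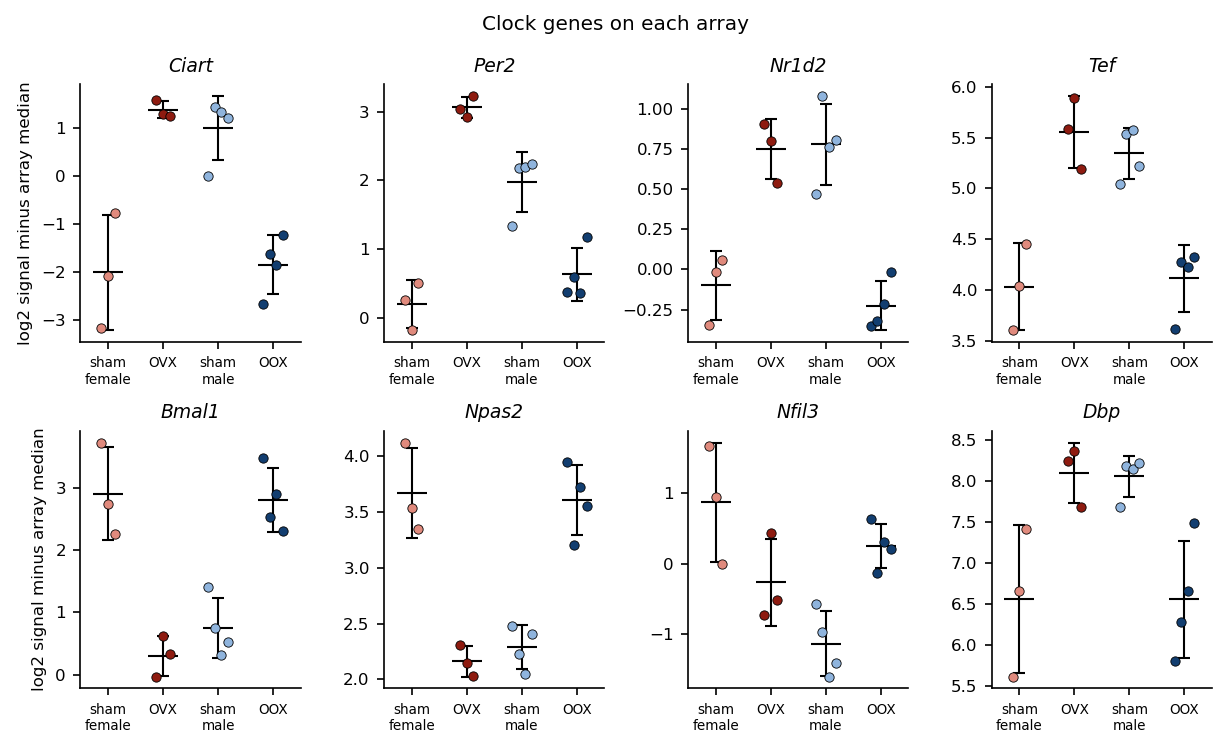
Each panel shows a clock gene and each point is 1 array, with the group on the x axis and the log2 signal minus the array median on the y axis. Bars are the mean and SD of 3 or 4 arrays. Ciart, Per2, Nr1d2, Tef and Dbp are high in OVX females and sham males, and Bmal1, Npas2 and Nfil3 are high in sham females and OOX males.

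**Figure D3:**
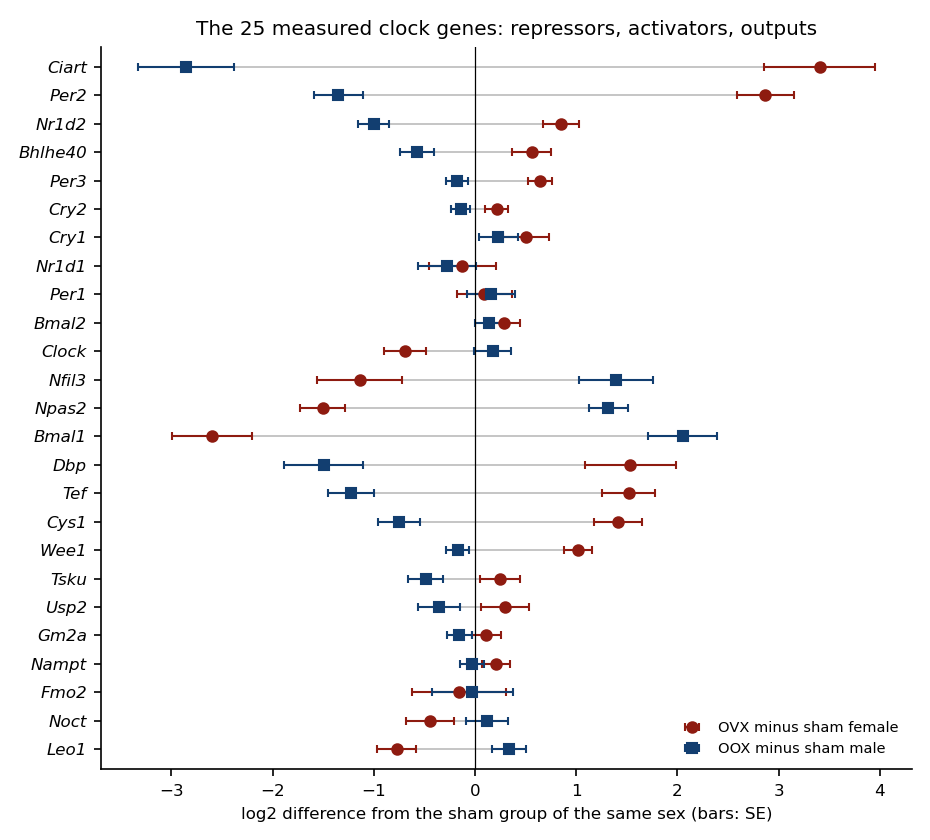
The 25 measured clock genes are listed from top to bottom as repressors, activators and outputs, each with its OVX effect (circle) and OOX effect (square) on the x axis as a log2 difference from the sham group of the same sex. Bars are standard errors from limma. In Ciart, Per2, Nr1d2, Dbp and Tef the circle lies to the right of 0 and the square to the left, in Bmal1, Npas2 and Nfil3 the order is turned, and Per1, Cry1, Nr1d1, Bmal2 and Fmo2 have both on the same side.

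Clock proteins act on short DNA elements, and these were looked for in the promoters of the opposed genes called. RefSeq promoter sequences of build GRCr8, from 250 bases before to 50 after the start of a gene, were at hand for 25 of the 29 genes (26 promoters, as Map7 has more than 1). The E-box of BMAL1 with CLOCK or NPAS2 (CACGTG) was in 5 of the 26 promoters (19.2%), those of Ciart, Tef, Batf3, Amn and Pik3ap1, and in 6.42% of all 33469 promoters of this length (8.52% of those of measured genes). The D-box of DBP, TEF and NFIL3 (TTATGTAA or TTACGTAA on either strand) was in 1, that of Per2, and in 1.01% of all promoters (0.736% of those of measured genes). The element of the REV-ERB receptors (TAGGTCA) was in 1, that of Bmal1, and in 2.63% of all (1.85% of those of measured genes). The cAMP element (TGACGTCA) and the palindrome of the estrogen receptor (GGTCA and TGACC with 3 bases between) were in none of the 26, and in 1.83% and 0.0269% of all promoters (2.87% and 0.0186% of those of measured genes). All elements were read on both strands. A match is only a match of letters, and its absence from so short a window says nothing of the factor.

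The stretches that hold these elements in the 4 clock genes are shown to place the motifs beside the responses, each 5' to 3' on the strand of the gene, with the element in capitals and ending no later than the start site. Ciart, with 3 E-boxes, is at chr2:186112247-186112379 (minus strand), Tef at chr7:115206589-115206674 (plus strand), Per2 at chr9:99497138-99497225 (minus strand) and Bmal1 at chr1:176766272-176766327 (plus strand).
Ciart: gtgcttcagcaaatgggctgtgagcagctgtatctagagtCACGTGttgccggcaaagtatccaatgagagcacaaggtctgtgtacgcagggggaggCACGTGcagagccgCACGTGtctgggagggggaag
Tef: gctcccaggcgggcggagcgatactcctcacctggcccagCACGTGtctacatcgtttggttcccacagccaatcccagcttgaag
Per2: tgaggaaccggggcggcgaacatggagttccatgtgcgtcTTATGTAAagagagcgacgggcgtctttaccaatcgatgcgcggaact
Bmal1: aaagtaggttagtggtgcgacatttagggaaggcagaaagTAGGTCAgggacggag
Ciart, Tef and Per2, with an E-box or D-box, were higher after OVX and lower after OOX, and Bmal1, with the REV-ERB element, was lower after OVX and higher after OOX. The promoters of the called clock genes Nr1d2, Npas2 and Cys1 held none of these elements, and that of Wee1 was not at hand. Among clock genes not called, Bhlhe40 and Nr1d1 also hold an E-box, the former opposed and the latter with effects of the same sign (-0.13 and -0.28), and Leo1 holds a REV-ERB element. Outside the clock, Batf3, Amn and Pik3ap1 hold an E-box and were lower after OVX and higher after OOX, so that the E-box was found in both directions.

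Outside the clock, the opposed genes called fell into those with an unadjusted p under 0.05 in both sexes and those that passed in females while the interval of the OOX effect spanned 0. Batf3, an AP-1 type regulator of transcription best known from dendritic cells, belonged to the former. Its levels were 0.57, 0.43 and 0.15 in sham females and -2.31, -1.54 and -2.24 in OVX females. They were -1.03, -1.11, -1.24 and -1.28 in sham males and -0.08, -0.78, 0.31 and 0.06 in OOX males. Neither sex showed overlap, and the effects of -2.41 (SE 0.27) and 1.04 (SE 0.23) gave an interaction of 3.46 (SE 0.35, limma adjusted p = 0.00123). Within slides they were -2.46 and 1.13.

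Gal, the neuropeptide galanin, had levels of -0.09, 0.28 and 0.00 in sham females, -1.89, -2.31 and -0.85 in OVX females, -1.70, -2.76, -1.94 and -2.52 in sham males and -0.76, -0.48, -1.38 and -1.44 in OOX males. No groups of a sex overlapped, and OVX replicate 3 was the highest of the OVX arrays. The interaction was 2.96 (SE 0.51, limma adjusted p = 0.039), and a second probe of Gal gave effects of -1.83 and 1.21 against -1.75 and 1.22.

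Lingo2, a membrane protein with leucine-rich repeats found mostly on neurons, had levels of 2.76, 2.92 and 2.77 in sham females, 1.18, 1.11 and 1.61 in OVX females, 1.64, 1.87, 1.12 and 1.25 in sham males and 2.12, 2.10, 2.21 and 2.63 in OOX males. Again no groups of a sex overlapped, and the interaction was 2.31 (SE 0.28, limma adjusted p = 0.00409). Arhgef19, which activates the small GTPase RhoA, had levels of 3.09 to 3.38 in sham females, 2.06 to 2.35 in OVX females, 1.94 to 2.43 in sham males and 2.44 to 2.87 in OOX males for all but OOX replicate 4, at 3.26. The highest sham male and the lowest OOX male nearly touched, and the effects were -1.03 (SE 0.20) and 0.69 (SE 0.17).

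Further genes in which both arms had an unadjusted p under 0.05 and groups did not overlap in either sex were Prkch, a protein kinase C (-0.92 and 0.61), Dapk1, a kinase of cell death (-0.61 and 0.84), Zdhhc14, which attaches palmitate to proteins (-0.66 and 0.44), Tmem171 (-0.82 and 0.62), Srsf12, a relative of splicing factors (-0.92 and 0.54), Il13ra1, a subunit of the interleukin-13 receptor (-0.75 and 0.33), and Amn, the membrane anchor of cubilin (-1.37 and 0.59). A second probe of Il13ra1 gave -0.47 and 0.06. Pik3ap1, an adaptor of phosphoinositide 3-kinase (-1.31 and 0.68), Map7, a microtubule-binding protein (-1.51 and 0.58), Col4a4, a basement membrane collagen (-1.07 and 0.39), and C5h1orf210 (1.48 and -0.84) overlapped in males alone. Adjusted p of the interaction (limma) in these 11 genes ran from 0.00707 in Pik3ap1 to 0.0412 in Amn.

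In Kcnj14, Mme and Sfrp2 the signal was high in sham females alone. Kcnj14, an inwardly rectifying potassium channel, had levels of 5.84, 5.89 and 5.16 in sham females, 1.32, 0.86 and 0.82 in OVX females, 1.32, 0.81, 1.25 and 0.46 in sham males and 0.71, 1.24, 0.81 and 1.41 in OOX males. The 3 lower groups overlapped throughout. The OVX effect was -4.63 (SE 0.28), the interaction 4.71 (SE 0.37, limma adjusted p = 0.00051) and the OOX effect 0.08 with a 95% confidence interval of -0.45 to 0.61, so that its sign is not settled by these arrays.

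Mme, the protease neprilysin, which degrades amyloid beta and neuropeptides, had levels of 3.13, 2.52 and 2.71 in sham females, -0.17, -0.70 and -0.09 in OVX females, -1.03, -0.80, -0.12 and -1.28 in sham males and -0.97, -0.23, -0.10 and -0.44 in OOX males. Sham females were above all other arrays and the male groups overlapped. The OVX effect of Mme was -3.11 (SE 0.31, limma adjusted p = 0.000733) and its OOX effect 0.37, with a 95% confidence interval of -0.20 to 0.95. Mmel1, its closest relative, was lower on the OVX arrays (0.97 to 1.25) than in any other group, and its sham females (2.23 to 2.70), sham males (1.94 to 2.24) and OOX males (1.83 to 2.47) overlapped. The OVX effect of Mmel1 was -1.31 (SE 0.19) and its OOX effect 0.19 (95% confidence interval -0.17 to 0.54).

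Sfrp2, a secreted antagonist of Wnt signaling made by fibroblasts, had levels of 2.34, 0.82 and 2.13 in sham females, -3.23, -2.75 and -3.33 in OVX females, -4.04, -3.41, -3.40 and -5.90 in sham males and -3.46, -4.36, -5.12 and -3.34 in OOX males. Sham females were above all other arrays, and the male groups overlapped. The gene was well above background on 11 of 14 arrays, and the OOX effect of 0.12 (95% confidence interval -1.11 to 1.34) spans 0 widely. Hoxb4, a homeobox gene of the hindbrain and neck, lay at -2.53 to -1.54 in sham females and at or below -3.33 on every other array, with an OOX effect of 0.44 (95% confidence interval -0.07 to 0.94).

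Dbh, which converts dopamine to noradrenaline, was well above background on the 3 sham female arrays (-2.82, -1.48 and -2.63) and on OOX replicate 2 (-3.51), and not on the other 10. Its fall after OVX was at least 5.30-fold, a bound set, array by array, by the weakest probe still called well above background (limma adjusted p = 0.0158). Its OOX effect of 0.98 (95% confidence interval -0.22 to 2.17) compared groups that were mostly at background, and OOX replicate 2 alone measured it.

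Hoxa2, a homeobox gene of the hindbrain, Meis1, a partner of Hox proteins, and Gfra1, a co-receptor for the growth factor GDNF, had the same profile as Kcnj14, with levels high in sham females alone. The OOX effects of Meis1 and Gfra1 were -0.12 and -0.05, so they fell outside the opposed genes by the sign of an effect near 0. Hoxa2 was not well above background on any male array, so the sign of its OOX effect compares background readings. The OVX effect of Meis1 was -3.77 and that of Gfra1 -3.46, and Hoxa2 was at least 12.3-fold lower after OVX, being well above background in sham females alone.

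**Figure D4:**
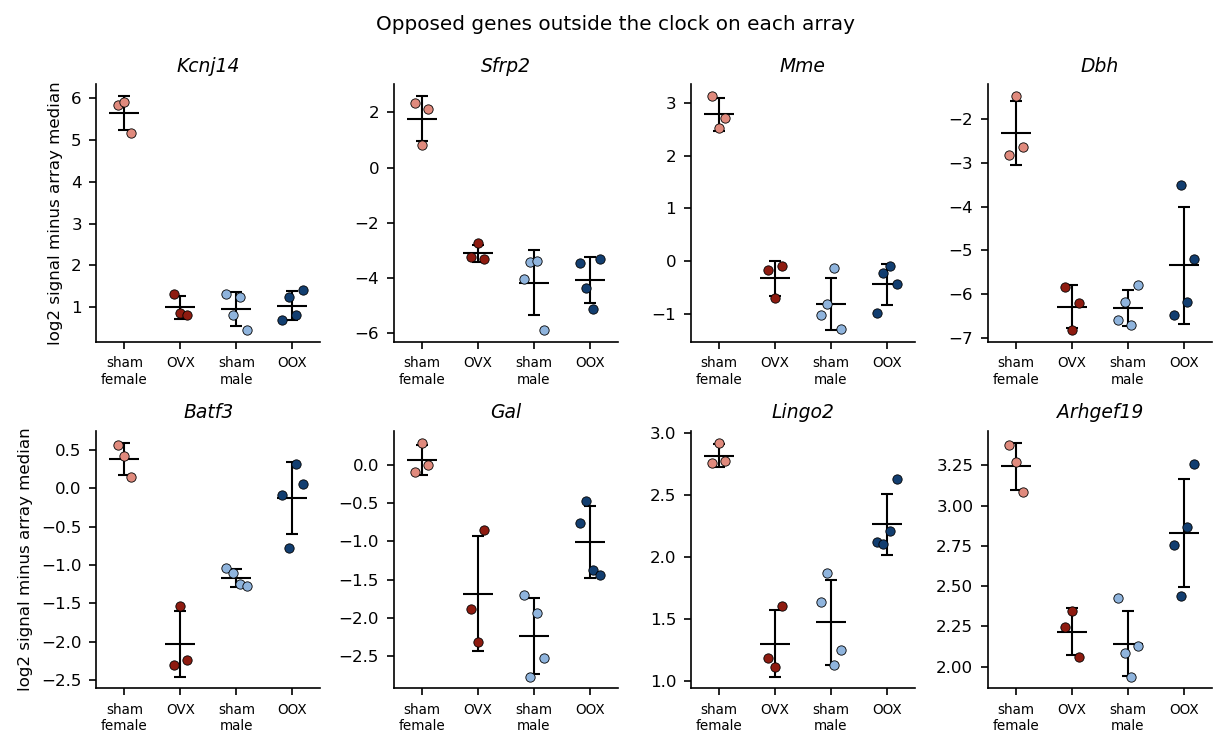
Each panel shows an opposed gene outside the clock lists and each point is 1 array, with the group on the x axis and the log2 signal minus the array median on the y axis. Bars are the mean and SD of 3 or 4 arrays. Kcnj14, Sfrp2, Mme and Dbh are high in sham females and low in the other groups, while Batf3, Gal, Lingo2 and Arhgef19 are also higher in OOX than in sham males.

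**Figure D5:**
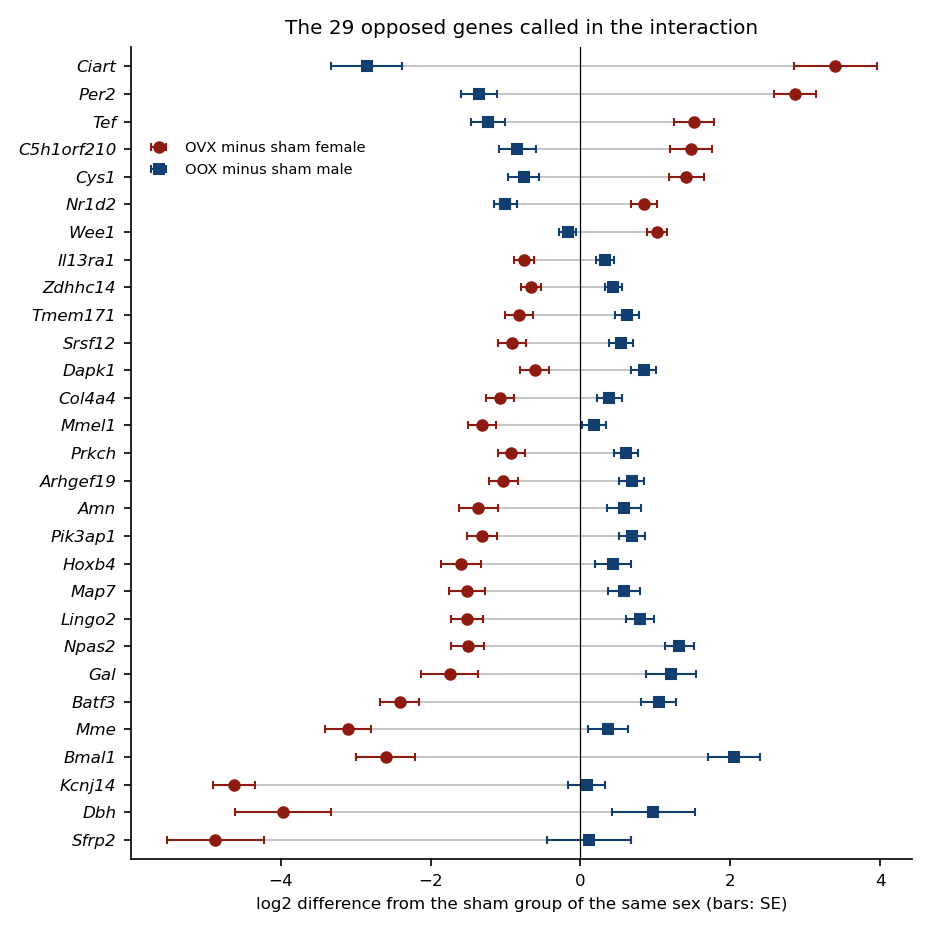
The 29 opposed genes called in the interaction are ordered by it, each with its OVX effect (circle) and OOX effect (square) on the x axis as a log2 difference from the sham group of the same sex. Bars are standard errors from limma. The circles and squares lie on opposite sides of 0, and the squares of Wee1, Mmel1, Kcnj14 and Sfrp2 lie near 0.

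In most of the called genes the fitted order of the sexes turned with gonadectomy. In 27 of 29 the difference between sham males and sham females had the opposite sign to that between OOX and OVX rats, the exceptions being Sfrp2 (-5.95 in sham and -0.96 in gonadectomized rats) and Mme (-3.60 and -0.12). For example, Ciart was 3.02 higher in sham males than in sham females and 3.24 lower in OOX than in OVX rats, Bmal1 was 2.15 lower and then 2.50 higher, and Batf3 was 1.55 lower and then 1.91 higher. Since the interaction is the second of these differences minus the first, the turn is another view of the same 4 means. Some turns rest on the sign of a value near 0. OOX and OVX rats differed by 0.04 (SE 0.26) in Kcnj14 and by 0.05 (SE 0.25) in Hoxb4. Of all measured genes 52 differed between the sham groups and 8 between OOX and OVX rats at an adjusted p under 0.05 (limma). The share of turns over all measured genes is not given here.

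In other gene groups the share of opposed genes is to be read against 47.0% of all measured genes. Of 21 RNA-binding and splicing genes that respond to temperature 12 were opposed (8 with arrays scaled to the 75th percentile) and none was called by limma, and 3 had an unadjusted interaction p under 0.05. These were Rbm3 (0.76 after OVX and -0.31 after OOX) and Cirbp (0.49 and -0.23), which are induced by mild cold, and Pnn (0.54 and -0.08). Of 19 immediate early genes, which respond to acute stimuli, 9 were opposed, all lower after OVX, and with the exception of Batf3, which sits in this list as an AP-1 factor, none was called. Nr4a3 (-0.70 and 0.96) and Btg2 (-0.30 and 0.40) had an unadjusted interaction p of 0.0254 and 0.0452. Of 14 mitotic genes 8 were opposed, all higher after OVX, none was called, and Ccnb2 (1.05 and -0.48), Ube2c (0.74 and -0.09) and Cenpf had an unadjusted p under 0.05. Cenpf was not well above background on any sham female array and was at least 1.53-fold higher after OVX (limma adjusted p = 0.0704), a difference that was not called. Of 20 interferon response genes 11 were opposed, 10 of them higher after OVX, and none was called, with Irf9 (0.30 and -0.45), Mx1 (0.49 and -0.28) and Irf7 (0.13 and -0.81) among 4 at an unadjusted p under 0.05.

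Few genes of the epithelium's basic machinery were opposed under median scaling. Of 49 measured subunits of oxidative phosphorylation 4 (8.16%), of 40 ribosomal proteins 5 (12.5%) and of 22 epithelial genes 2 (9.09%) were opposed, with 9, 16 and 9 members saturated on every array. These shares depended on the scaling, since quantile normalization gave 20 (40.8%), 18 (45%) and 5 (22.7%). The medians of both effects lay below 0 in each list, at -0.24 after OVX and -0.17 after OOX for oxidative phosphorylation, -0.21 and -0.27 for ribosomal proteins and -0.20 and -0.30 for epithelial genes. Among the epithelial genes Cldn1, a tight junction protein, had effects of -0.93 and 0.45 and Prlr, the prolactin receptor, of -0.51 and 0.12, with unadjusted interaction p of 0.00202 and 0.0117 in limma. Of 20 measured enzymes of steroid synthesis and conversion 9 were opposed and none was called. Star, which carries cholesterol into mitochondria, had an unadjusted interaction p of 0.00205 in limma, and was well above background on all OVX arrays, on none of sham females and on some of the male arrays.

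Of 6 measured steroid receptors 3 were opposed, and none was called. The membrane estrogen receptor Gper1 (-0.16 and 0.34) was among the opposed. The estrogen receptor Esr2 (0.30 and 0.72) and the progesterone receptor Pgr (-0.11 and -0.21) had effects of the same sign, and Esr1 was not well above background on any array. Among 18 measured genes of amyloid beta production and clearance 6 were opposed, and Mme was the only one called. Ide, the insulin-degrading enzyme, had effects of -0.15 (SE 0.12) and 0.13 (SE 0.10), with an unadjusted interaction p of 0.11. Bcl2l1, which protects cells from apoptosis, had effects of -0.19 (SE 0.20) and -0.02 (SE 0.17).

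Among the markers of other cell types, those of neurons, fibroblasts and astrocytes were mostly opposed, in the direction of the 22 genes. Of 17 measured neuron markers 13 were lower after OVX and higher after OOX and 1 the reverse, with medians of -0.69 and 0.39 and no call, and Nefh (-1.52 and 0.39) alone had an unadjusted interaction p under 0.05. The summed signal of 18 neuron markers was 38.2 to 101 times the array median in sham females, 37.9 to 63.8 in OVX females, 28.6 to 222 in sham males and 38.5 to 119 in OOX males, so that the groups overlapped. Of 18 fibroblast markers 13 were lower after OVX and higher after OOX, with medians of -0.36 and 0.28, and Sfrp2 was called, with Pdgfra (-0.61 and 0.29) and Mgp (-0.82 and 0.28) at an unadjusted p under 0.05. Their summed signal was 579 to 679 in sham females, 391 to 627 in OVX females, 331 to 794 in sham males and 458 to 647 in OOX males. Of 9 astrocyte markers 7 were opposed in this direction, with medians of -0.44 and 0.34, and their summed signal was 61.0 to 112 in sham females, 54.7 to 87.1 in OVX females, 39.9 to 142 in sham males and 54.6 to 163 in OOX males. All neuron, fibroblast and astrocyte markers on the array were above background on at least 1 array. Within slides the medians of the neuron markers were -1.99 after OVX and -1.13 after OOX, those of the astrocyte markers -0.84 and -0.35 and those of the fibroblast markers 0.10 and 0.56, so that in none of the 3 lists were they of opposite sign there. The part of these cells in the levels of Lingo2, Gal, Sfrp2 and the other opposed genes was not tested, and in whole tissue fewer cells of a type and less RNA per cell cannot be told apart.

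Among the pituitary markers Prl, which encodes prolactin, was not opposed and not called. Its level was 8.31 in sham female replicate 1, -1.70 and -1.69 in replicates 2 and 3, and it was not well above background on any other array. Sham female replicate 1 thus stood far above the other sham females, which were themselves above all other arrays. The summed signal of the 7 pituitary markers ran from 45.5 to 658 in sham females, from 31.2 to 56.8 in OVX females, from 36.5 to 54.9 in sham males and from 22.6 to 62.7 in OOX males, and the highest sum was that of a sham female array. Red blood cell markers were opposed in 4 of 9 and lymphocyte markers in 2 of 7, all of them higher after OVX, and macrophage markers in 7 of 14, endothelial markers in 4 of 11, mural cell markers in 5 of 10 and oligodendrocyte markers in 6 of 12, with no call.

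Among the remaining lists, the opposed were 7 of 12 heat shock genes, 12 of 20 genes of the unfolded protein and integrated stress response, 9 of 15 glucocorticoid-responsive genes, 4 of 13 hypoxia-responsive genes, 8 of 19 cholesterol genes, 7 of 11 p53 and cell death genes, 4 of 10 acute phase genes, 4 of 7 MHC class II genes, 8 of 11 motile cilia genes and 3 of 12 spermatid genes. None of these was called by limma, and between 0 and 4 members of a list had an unadjusted interaction p under 0.05. The highest share was that of the p53 and cell death genes, with 4 of 11 (36.4%, against 8.15% of measured genes). Of these, 2 had an interaction below 0 and 2 above 0. Of 7 hindbrain homeobox genes Hoxb4 was opposed and called, and the median effects were -1.91 after OVX and -0.06 after OOX.

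Several limits bear on these counts. With the array scaled to its 75th percentile in place of the median, 34 opposed genes called were higher and 39 lower after OVX, and with quantile normalization these were 21 and 33, against 7 and 22. With slide as a block, which uses differences within slides alone, Kcnj14 alone of the 29 was still called (limma adjusted p = 0.0433), and for the others the adjusted p lay between 0.0637 and 1. With scan day as a block 12 opposed genes were called, 11 of the 29 among them. Leaving out 1 array gave 13 opposed genes called without OVX replicate 1 or 2, 14 without sham female replicate 1, 15 without sham female replicate 2, OVX replicate 3, OOX replicate 3 or sham male replicate 2, and 21 to 42 without any other array, the most without sham male replicate 1. Called whichever array was left out were 11 of the 29, namely Ciart, Per2, Nr1d2, Tef, Bmal1, Npas2, Batf3, Kcnj14, Mme, Lingo2 and Pik3ap1. At the threshold, Amn and Hoxb4 were the last genes inside (adjusted p = 0.0412) and Anxa2 and Adra2c the first outside (0.0507).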

How the data were processed

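Total RNA of lateral ventricle CP, pooled from 3 animals per array, had been labelled with Cy3 and hybridised to 1-colour Agilent rat arrays. The deposited scanner output gives a fluorescence intensity per spot, already corrected for background by the authors' software (Agilent Feature Extraction 10.5.1.1) and not scaled between arrays. A deposited table of log2 values, which the authors describe as median-centred, covers the same arrays. Its columns differed from the values used here by a nearly constant amount per array and had medians of 7.59 to 7.88, so it was used as an alternative.

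The processed signal was taken, outlier spots and controls were left out, spots of a probe were averaged, and the median of each array was subtracted on the log2 scale. Names came from RefSeq (GRCr8) by accession, with no coordinates taken over because the array design is on rn4. This named 18004 of 30367 probes, for 15154 genes, and left 12363 unnamed. A gene was read from its brightest probe. All 4 groups were fitted together by lmFit and eBayes (limma 3.58.1, R 4.3.3) without covariates, and p-values were adjusted over 27517 genes and unnamed probes. The fit was run on simulated data with independent noise on each array. That simulation held no effects of slide, scan day or shared animals, so it cannot speak to them. Groups come from the labels, which give 4 arrays per male group where the methods name 3 pools, and the fit treats all arrays as independent, which was not tested. The number of arrays limits the precision.

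The opposed genes, the 34 gene lists, the tests and the alternatives were chosen with earlier results of these data known. The text names, for each direction, the 8 largest interactions among called genes, filled up by p, and the 5 genes with the smallest of the larger single-sex p, then up to 3 members per list ranked by moderated statistic, sex steroid receptors, Ide and Bcl2l1. Some results of the lists and motifs are not reported here. The other called genes, other clock genes and genes at the threshold were named after their values were seen. The scanner files used here hold no mean signal per spot, so normexp correction with an offset of 50 used the median signals. The alternatives were other scalings and corrections, other gene summaries and filters, array weights, another variance model, blocks for slide, scan day and replicate number, each sex alone, the methods' t-test, and leaving out each array. Leaving out sham male replicate 1 and OOX replicate 2 together was added after seeing the data. Python 3.11.15 with matplotlib 3.10.9 drew the figures.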

Additional observations from a re-analysis of the deposited data

Results flagged for a closer look

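The OOX effect differed from the OVX effect, by limma's interaction test over all features at an adjusted p under 0.05, in 33 measured genes. The values are the OOX effect minus the OVX effect on the log2 scale. Below 0 were Ciart at -6.26, Per2 at -4.22, Tef at -2.75, C5h1orf210 at -2.32, Cys1 at -2.17, Nr1d2 at -1.85, Plk5 at -1.38 and Wee1 at -1.19. Above 0 and over 3 were Hoxa2 at 5.32, Sfrp2 at 4.99, Dbh at 4.95, Kcnj14 at 4.71, Bmal1 at 4.65, Meis1 at 3.65, Mme at 3.48, Batf3 at 3.46 and Gfra1 at 3.42. Those of Hoxa2, well above background in sham females alone, and Dbh, well above background on 4 arrays, are differences from background readings, so their size and rank are not exact. Between 2 and 3 were Gal at 2.96, Npas2 at 2.82, Lingo2 at 2.31, Map7 at 2.09 and Hoxb4 at 2.03. Under 2 were Pik3ap1 at 1.99, Amn at 1.95, Arhgef19 at 1.71, Prkch at 1.53, Mmel1 at 1.49, Col4a4 at 1.46, Dapk1 and Srsf12 at 1.45, Tmem171 at 1.44, Zdhhc14 at 1.09 and Il13ra1 at 1.08.

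Dixon's test was run on both male groups for up to 98 genes. It flags about 1 in 20 groups by chance, so as many flags as are listed here could arise by chance alone. In these groups of 4 arrays, single arrays stood apart from the other 3 in some genes. Sham male replicate 1 did so for Ciart (level 0), Per2 (1.33), Dbp (7.68) and the neurofilament gene Nefh (0.84). It was the lowest sham male in the clock genes and the highest in Nefh. OOX replicate 1 did so for Tef (3.62) and Drc1, a gene of motile cilia (5.06), OOX replicate 2 for Mmel1 (1.83) and Dnai1, a ciliary dynein (1.71), and OOX replicate 3 for Rbm3 (2.98). Groups of 3 were not tested.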

How the results depend on the processing

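The interaction kept its direction and an unadjusted p under 0.05 in all 29 opposed genes under the 28 other settings that refitted the data. At least 26 of the 29 stayed opposed in each of these. The number of calls (33 as reported, 7 opposed and higher after OVX, 22 opposed and lower) varied. In this order, calls were 79, 34 and 39 with scaling to the 75th percentile, 59, 21 and 33 with quantile normalization, 53, 14 and 34 with normexp, 65, 24 and 36 with the deposited value table, 37, 11 and 21 with the mean over probes, 59, 18 and 34 when refitted on features above background, 127, 53 and 63 with array weights, 56, 17 and 33 with trend and robust variance, 91, 34 and 48 with slide as a random block, and 60, 18 and 40 without sham male replicate 1 and OOX replicate 2. They were 2, 0 and 2 with slide as a block and 16, 6 and 6 with scan day. Leaving out 1 array gave 16 to 44, 4 to 14 and 8 to 28. The 35 genes past the methods' thresholds became 18 with slide as a block, 31 to 54 without 1 array and 56 without those 2 arrays, and 25 by the methods' t-test, with 0 after Benjamini-Hochberg adjustment. The interaction of Bcl2l1 turned to -0.3289 with the mean over probes, and was not called. The replicate block gave 14, 4 and 7, but the numbers share no stated source, same-numbered arrays correlated at -0.564 to 0.356 and 2 of 14 arrays matched their own number best, so no pairing was assumed. The causes were not tested. Dim probes and 9 saturated epithelial genes limit what the signal can show.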
